A study of Homo sapiens with 4 samples.

Results

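The 10 genes described here encode cation channels of the transient receptor potential (TRP) superfamily, with the related polycystins, and are 10 of the 58884 genes in each count table. They are the vanilloid-type genes TRPV1, TRPV2, TRPV3, TRPV4 and TRPV6, the melastatin-type TRPM4 and TRPM7, the canonical-type TRPC1, and the polycystin genes PKD1L1 and PKD2. Each was matched by its symbol to an Ensembl gene. The list was chosen by the fold changes of the present comparison, which were known when it was drawn up, so the members' levels and fold changes are given as a description, without a test. Another 22 TRP and polycystin genes were outside the list, and 11 of them had enough reads to be tested.

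RNA was sequenced from HCT116, a human colorectal carcinoma cell line, in 2 control libraries and 2 RALY knockdown libraries. RALY belongs to the hnRNP proteins and binds uridine-rich RNA. Per the labels' protocols, cells received lentiviral hairpins, either directed at RALY or nonsilencing, for 72 h. Other labels call the controls untreated or wild type, so whether they carried the nonsilencing hairpin is not settled here. The source names number the cell line differently in replicates 1 and 2, while its own entry is HCT-116 throughout. Neither the number of hairpins nor separate cultures are given. A p-value here sets the group difference against the spread of libraries within a group, and that spread may be only technical.

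TRP channels are tetramers that pass cations across cell and organelle membranes, most of them calcium among others. They open to heat, cell swelling, stretch, lipids, emptied calcium stores or internal calcium, depending on the member. Polycystins combine channel subunits such as PKD2 with large receptor-like partners such as PKD1 and PKD1L1, and are best known from primary cilia. In gut epithelium TRPV6 is known for calcium uptake and TRPM7 for magnesium uptake.

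Stretches of these genes are shown because RALY binds runs of uridine, which read as T in the sense strand. The longest T run within the span of 3 members is given on the sense strand of GRCh38, 5′ to 3′, with the run in capitals. TRPV4 and PKD1L1 had the largest fold changes of the list, and TRPC1 the smallest.
TRPV4: gttcTTTTTTTTTTTTTTTTTTTTTTgagg
PKD1L1: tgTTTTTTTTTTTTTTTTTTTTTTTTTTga
TRPC1: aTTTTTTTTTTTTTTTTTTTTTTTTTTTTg
The TRPV4 run has 22 bases and lies in intron 12 of the canonical transcript (chr12:109792240-109792269, minus strand). The PKD1L1 run has 26 bases in intron 26 (chr7:47861879-47861908, minus strand), and the TRPC1 run has 28 bases in intron 1 (chr3:142731374-142731403, plus strand). Each window was picked for its run, so their likeness is by choice.

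Promoter windows from RefSeq (GRCh38.p14) matched 7 of the 10 genes, TRPV1, TRPV3, TRPV6, TRPM4, TRPM7, TRPC1 and PKD2, and not TRPV2, TRPV4 or PKD1L1. The 250 bases upstream of the start are printed for TRPM7, the member with the most reads, for TRPM4, which was lower in the knockdown, and for TRPV6, which had the lowest level per exon length of the tables in the controls. Capitals mark GC boxes, spelled GGGCGG on either strand. They also mark the CCAAT motif, searched on either strand as well. The third motif searched on either strand was TATAAA.
TRPM7: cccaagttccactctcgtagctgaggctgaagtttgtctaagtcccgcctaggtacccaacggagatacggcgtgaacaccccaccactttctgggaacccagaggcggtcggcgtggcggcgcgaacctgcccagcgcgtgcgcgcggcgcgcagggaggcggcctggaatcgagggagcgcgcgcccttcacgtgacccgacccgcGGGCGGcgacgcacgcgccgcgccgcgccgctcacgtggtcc
TRPM4: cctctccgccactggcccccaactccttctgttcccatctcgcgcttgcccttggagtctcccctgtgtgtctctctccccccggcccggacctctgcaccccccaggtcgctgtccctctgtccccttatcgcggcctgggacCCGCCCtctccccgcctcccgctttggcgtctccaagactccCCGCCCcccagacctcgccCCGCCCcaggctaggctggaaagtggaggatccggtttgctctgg
TRPV6: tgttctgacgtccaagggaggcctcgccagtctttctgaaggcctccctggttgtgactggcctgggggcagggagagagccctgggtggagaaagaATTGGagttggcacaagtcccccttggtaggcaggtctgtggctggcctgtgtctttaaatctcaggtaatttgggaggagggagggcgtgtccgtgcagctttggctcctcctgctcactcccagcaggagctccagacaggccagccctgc
The TRPM7 window (chr15:50686798-50687047, minus strand) held 38 CpG dinucleotides and 1 GC box. The TRPM4 window (chr19:49157542-49157791, plus strand) held 16 CpG and 3 GC boxes. The end of this window lies inside the gene as placed in the count tables, which starts at 49157741. The TRPV6 window (chr7:142885746-142885995, minus strand) held 4 CpG, no GC box and 1 CCAAT match. Among 35116 promoter windows the median was 11 CpG, 42.6% held a GC box, 32.0% CCAAT and 10.7% TATAAA. None of the 9 windows of the 7 genes held TATAAA, and PKD2 was the richest in CpG together with TRPM7, at 38.

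Depth and the target of the knockdown were as follows. Each library held 13360007 to 16847520 counts. RALY (ENSG00000125970, chromosome 20, positions 33993646 to 34108308) had 1903 and 2132 counts in the control pair and 634 and 522 after knockdown, so 27.9% of the control level remained (log2 fold change -1.84, SE 0.127, edgeR quasi-likelihood adjusted p = 6.59e-06). Over all 19686 genes tested, 25.6% were called at an adjusted p under 0.05, 12.5% higher and 13.1% lower in the knockdown. In 63.6% the CPM of the groups did not overlap (CPM is the count per 1e6 counts, scaled with TMM factors). Of the 12 epithelial markers every one had counts, with a summed level of 802 to 906 CPM in the control pair and 807 to 865 CPM after knockdown.

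TRPV4, a channel opened by cell swelling, warmth and stretch, was the member with the largest difference. It had 112 and 176 counts in the control pair and 25 and 17 after knockdown. That is 8.49 and 10.2 CPM against 1.56 and 1.14 CPM, so both knockdown libraries lay far below both controls. The mean was 9.34 ± 1.20 CPM in the control pair and 1.35 ± 0.295 CPM after knockdown (SD, n = 2 each), and 14.5% of the control level remained (log2 fold change -2.78, SE 0.301). Fewer cells with the transcript and less transcript per cell cannot be told apart in bulk RNA. TRPV4 (ENSG00000111199) lies on chromosome 12, positions 109783085 to 109833401 of GRCh38, minus strand, and shares 1.38% of its exon bases with another annotated gene. Leaving out 1 library in turn moved its log2 fold change between -3.04 and -2.58.

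PKD1L1 went the other way. It is a PKD1-like protein that pairs with PKD2 in the cilia of the embryonic node, where left and right are set. It had 39 and 75 counts in the control pair and 365 and 307 after knockdown, or 2.96 and 4.34 against 22.8 and 20.6 CPM. The groups were wide apart: 3.65 ± 0.978 CPM in the control pair and 21.7 ± 1.505 CPM after knockdown (SD, n = 2 each; log2 fold change 2.56, SE 0.242, or 5.88-fold). The gene (ENSG00000158683) spans 208 kb of chromosome 7, positions 47740202 to 47948491, minus strand. It shares no exon base with another gene of the tables. The antisense gene PKD1L1-AS1 within its span had 4 and 4 counts in the control pair and 3 and 0 after knockdown, and LINC00525 had 3 and 3 against 8 and 3. The sources used here do not give the strand setting of the counting, so reads of such pairs could not be separated by strand. Without control replicate 2 the log2 fold change of PKD1L1 was 2.86, and without control replicate 1 it was 2.28.

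TRPM4, a channel that opens to internal calcium and passes sodium and potassium but not calcium, was lower in both knockdown libraries. Its counts were 803 and 1113 in the control pair and 603 and 634 after knockdown. It was at 60.9 and 64.4 CPM against 37.6 and 42.6 CPM, without overlap, and 64.1% of the control level remained (log2 fold change -0.64, SE 0.128). With an offset for the GC content of each transcript, an alternative chosen after the data were seen, the value was -0.46. TRPM4 (ENSG00000130529, chromosome 19, positions 49157741 to 49211836, plus strand) shares no exon base with another gene.

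**Figure D1:**
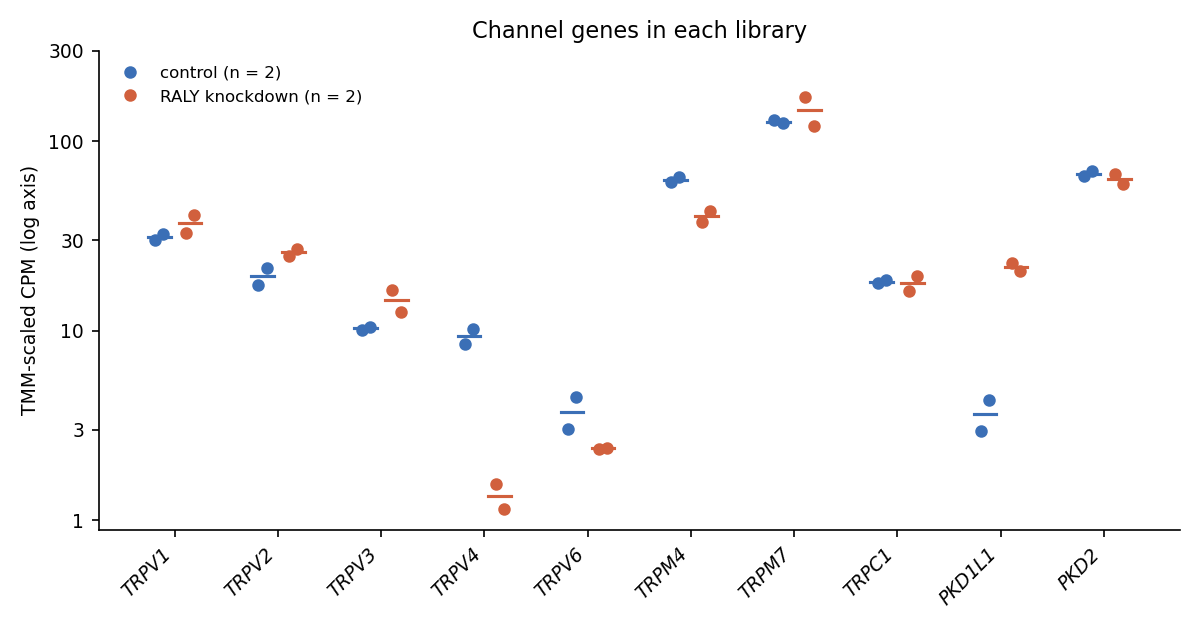
TMM-scaled CPM (log axis) of the 10 channel genes in each library; points are libraries and lines are group means, controls in blue and RALY knockdown in orange. TRPV4 lies at 8.49 and 10.2 CPM in the control pair and at 1.56 and 1.14 after knockdown, PKD1L1 at 2.96 and 4.34 against 22.8 and 20.6, and the knockdown points of TRPM7 spread from 120 to 172 CPM.

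The heat-gated and warmth-gated TRPV1, TRPV2 and TRPV3 were each somewhat higher in the knockdown. TRPV1, the capsaicin receptor, had 30.2 and 32.2 CPM in the control pair and 32.8 and 41.0 CPM after knockdown (log2 fold change 0.24, SE 0.154). One knockdown library was only just above the controls, and without knockdown replicate 2 the log2 fold change was 0.06. TRPV1 (chromosome 17, positions 3565444 to 3609411) shares 30.04% of its exon bases with other genes, so its count is uncertain. Most of these, 1519 bases, fall in the coding gene ENSG00000262304, which runs along the same strand, and 242 in SHPK, which encodes a sugar kinase.

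TRPV2, also linked to stretch and growth factor signalling, had 17.5 and 21.5 CPM in the control pair and 24.8 and 27.2 CPM after knockdown (log2 fold change 0.41, SE 0.176). Without control replicate 1 this was 0.24 and without control replicate 2 it was 0.55. TRPV2 shares 12.1% of its exon bases with other genes. Of these, 145 bases fall in ENSG00000239203 on the same strand (log2 fold change 0.70, edgeR adjusted p = 0.103) and 263 in an antisense gene. TRPV3, best known from skin keratinocytes, had 10.1 and 10.5 CPM in the control pair and 16.5 and 12.6 CPM after knockdown (log2 fold change 0.49, SE 0.216). The knockdown libraries of TRPV3 differed from each other by more than the lower of them differed from the higher control, and without knockdown replicate 1 the log2 fold change was 0.27.

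TRPV6, the calcium-selective channel of absorbing epithelia, was the scarcest member in both groups by the exon lengths of the tables. It had 40 and 77 counts in the control pair and 38 and 36 after knockdown, or 3.03 and 4.45 against 2.37 and 2.42 CPM. The 2 controls were farther apart than the lower control was from the knockdown (log2 fold change -0.65, SE 0.319). Without control replicate 2 the log2 fold change was -0.35 and without control replicate 1 it was -0.93.

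The remaining 3 members had overlapping groups. TRPM7, a channel fused to a protein kinase and needed for magnesium balance, had 129 and 125 CPM in the control pair and 172 and 120 CPM after knockdown. Its log2 fold change was 0.20 (SE 0.150), and it changed sign without knockdown replicate 1, at -0.09. TRPC1, a subunit tied to store-operated calcium entry, had 17.9 and 18.5 CPM against 16.2 and 19.5 CPM (log2 fold change -0.03, SE 0.187), and was at 0.08 without knockdown replicate 1. PKD2, the polycystin channel subunit mutated in polycystic kidney disease, had 65.2 and 69.4 CPM against 67.5 and 59.2 CPM (log2 fold change -0.09, SE 0.121).

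All 10 members passed the filter on low counts, and the fewest reads in any library were the 17 of TRPV4. The CPM of the groups did not overlap for 7 of 10, beside 63.6% of all genes tested. Of the 10, 3 were called in the fit over all genes (edgeR quasi-likelihood), 1 higher and 2 lower. The share was 25.6% over all genes and 28.6% over protein-coding genes, which all 10 are. These counts come from the comparison on which the list was drawn up and carry no weight of their own. Without control replicate 1 or 2, 2 of the 10 were called, and without knockdown replicate 2, 5 were. With the replicate number as a block 5 were called, TRPV2 and TRPV3 added, and with the GC offset 4, TRPV2 added.

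To set the channels beside each other, CPM was divided by the exon length in the tables. In the controls the order of these per-length levels was PKD2 at 12.2 ± 0.542, TRPM7 at 10.3 ± 0.234, TRPM4 at 9.48 ± 0.377, TRPV2 at 5.76 ± 0.827, TRPV1 at 5.65 ± 0.263 and TRPC1 at 3.79 ± 0.0918 CPM per kb (SD, n = 2). TRPV4 followed at 2.48 ± 0.318, TRPV3 at 1.05 ± 0.0324, PKD1L1 at 0.356 ± 0.0954 and TRPV6 at 0.314 ± 0.0845 CPM per kb. Libraries of TRPV2 and TRPV1 overlapped in this order, as did those of PKD1L1 and TRPV6, and the other neighbours did not. None of the 10 was abundant: PKD2 lay above 55.2% of tested protein-coding genes on this scale and TRPV6 above 5.23%.

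After knockdown the order was TRPM7 (11.8 ± 2.95), PKD2 (11.5 ± 1.06), TRPV2 (7.68 ± 0.502), TRPV1 (6.68 ± 1.05), TRPM4 (6.08 ± 0.537), TRPC1 (3.71 ± 0.491) and PKD1L1 (2.12 ± 0.147 CPM per kb). TRPV3 (1.48 ± 0.282), TRPV4 (0.360 ± 0.0784) and TRPV6 (0.201 ± 0.00297 CPM per kb) closed it. By the lengths of the tables PKD1L1 moved from place 9 to place 7 and TRPV4 from place 7 to place 9, while TRPV6 stayed at place 10. The exon length of TRPV6 in the tables, 11903 bases, is far above the 2906 bases of its canonical transcript. With canonical lengths TRPV6 stood at 1.29 CPM per kb in the controls, above PKD1L1 at 0.401, and TRPM4 came first at 15.4. After knockdown TRPV4 was then last at 0.419, below TRPV6 at 0.824, and PKD1L1 at 2.38 lay just below TRPV3 at 2.45. By canonical lengths TRPV4 thus went from place 7 to place 10 and PKD1L1 from place 10 to place 8, and TRPV6 was at place 9 in both groups.

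Summed over the 5 TRPV members, the per-length level was 14.2 and 16.3 CPM per kb in the control pair and 15.6 and 17.2 after knockdown, so the groups overlapped. Within that sum the make-up differed: TRPV4 held 16.3% in the controls and 2.19% in the knockdown, and TRPV2 held 37.7% and 46.8%. TRPM4 held 48.0% of the TRPM4 and TRPM7 sum in the controls and 34.0% in the knockdown. PKD1L1 held 2.84% of the PKD1L1 and PKD2 sum in the controls and 15.6% in the knockdown. All these sums and shares use the exon lengths of the tables and depend on them. With canonical lengths TRPM4 was above TRPM7 in the controls, at 15.4 against 12.2 CPM per kb. After knockdown it was below TRPM7 by those lengths too, at 9.89 against 14.1.

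**Figure D2:**
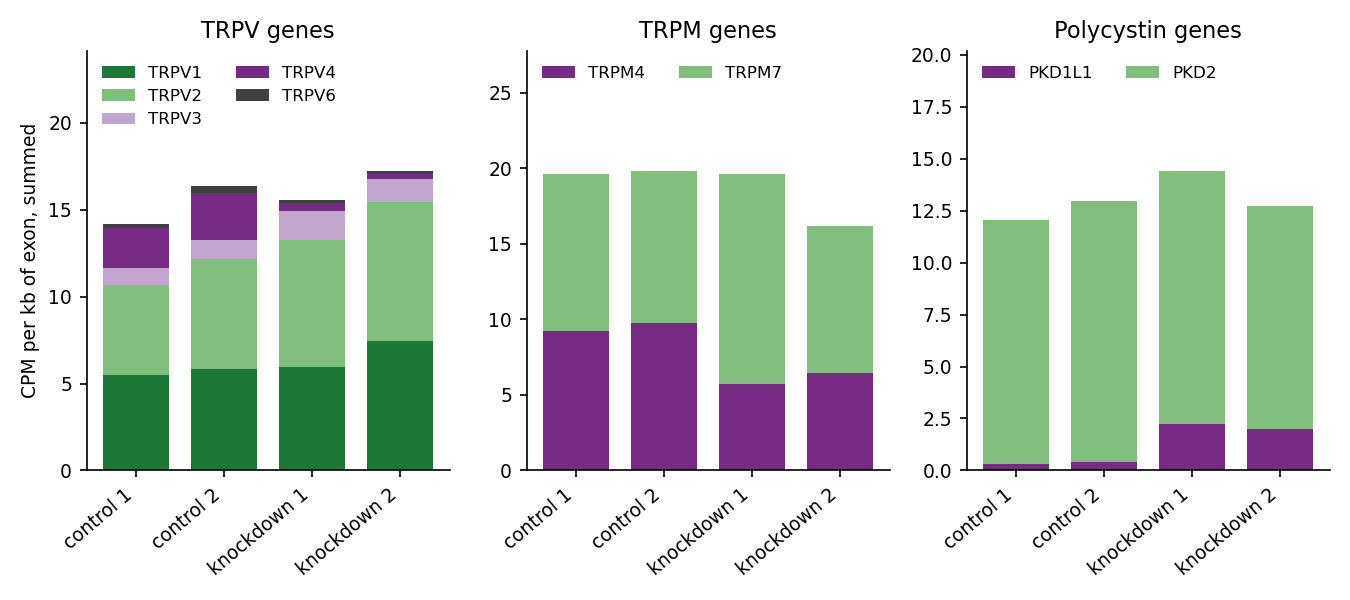
Stacked bars of CPM per kb of exon in each library, for the 5 TRPV genes, for TRPM4 and TRPM7, and for PKD1L1 and PKD2, on separate axes that start at 0. The TRPV4 segment is 16.3% of the TRPV sum in the controls and 2.19% after knockdown, with sums between 14.2 and 17.2 in all 4 libraries, and PKD1L1 is 2.84% against 15.6% of its sum.

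Of the 22 TRP and polycystin genes outside the list, 11 passed the filter, and 1 of them, TRPM2, was called as lower and 0 as higher (edgeR adjusted p under 0.05). That is 9.09% of those tested, beside 28.6% of protein-coding genes and 25.6% of all genes, with a median log2 fold change of -0.03 beside 0.01 over all genes. The 11 remained after the list was drawn by fold changes of this same comparison, so their share carries no weight of its own. TRPM2 is a channel opened by ADP-ribose and oxidative stress. It had 676 and 760 counts in the control pair and 363 and 286 after knockdown, and fell from 47.6 ± 5.14 to 20.9 ± 2.41 CPM (SD, n = 2 each; log2 fold change -1.18, SE 0.155, edgeR adjusted p = 0.000313). Both knockdown libraries lay below both controls. The call held in each of the 12 alternatives, with edgeR or DESeq2 adjusted p between 5.15e-14 and 0.0304. At an unadjusted p under 0.05, edgeR also gave 1 of the 11, beside 5890 of 14280 protein-coding genes. The DESeq2 Wald test called TRPM2 and no other.

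TRPM5, the calcium-activated channel of taste and tuft cells, had 8 and 19 counts in the control pair and 13 and 47 after knockdown. Only knockdown replicate 2 stood above the controls (log2 fold change 1.17, edgeR adjusted p = 0.16). Without knockdown replicate 1 TRPM5 was called as higher (log2 fold change 1.82, edgeR adjusted p = 0.000647), and without knockdown replicate 2 PKD1 was (0.51, edgeR adjusted p = 0.00609). PKD1, the large partner of PKD2, had 1902 and 2594 counts in the control pair and 3362 and 2115 after knockdown (log2 fold change 0.26, edgeR adjusted p = 0.255). PKD1 has near-identical pseudogenes, so its count is uncertain.

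The lysosomal channels MCOLN1, MCOLN2 and MCOLN3 had log2 fold changes of -0.10, 0.13 and -0.03 (edgeR adjusted p = 0.676, 0.467 and 0.906). MCOLN2 and MCOLN3 were the highest of the family per length, at 15.1 ± 0.159 and 13.2 ± 0.416 CPM per kb in the controls (SD, n = 2). TRPM6, a channel kinase of magnesium uptake related to TRPM7, was at -0.18 and PKD1L2, a relative of PKD1L1, at -0.25 in log2 units (edgeR adjusted p = 0.632 and 0.536). The scarce TRPM8 and PKD2L1 had log2 fold changes of 0.32 and 0.38 (edgeR adjusted p = 0.592 and 0.514). Another 11, among them TRPA1, TRPV5 and TRPC6, had too few reads to be tested.

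**Figure D3:**
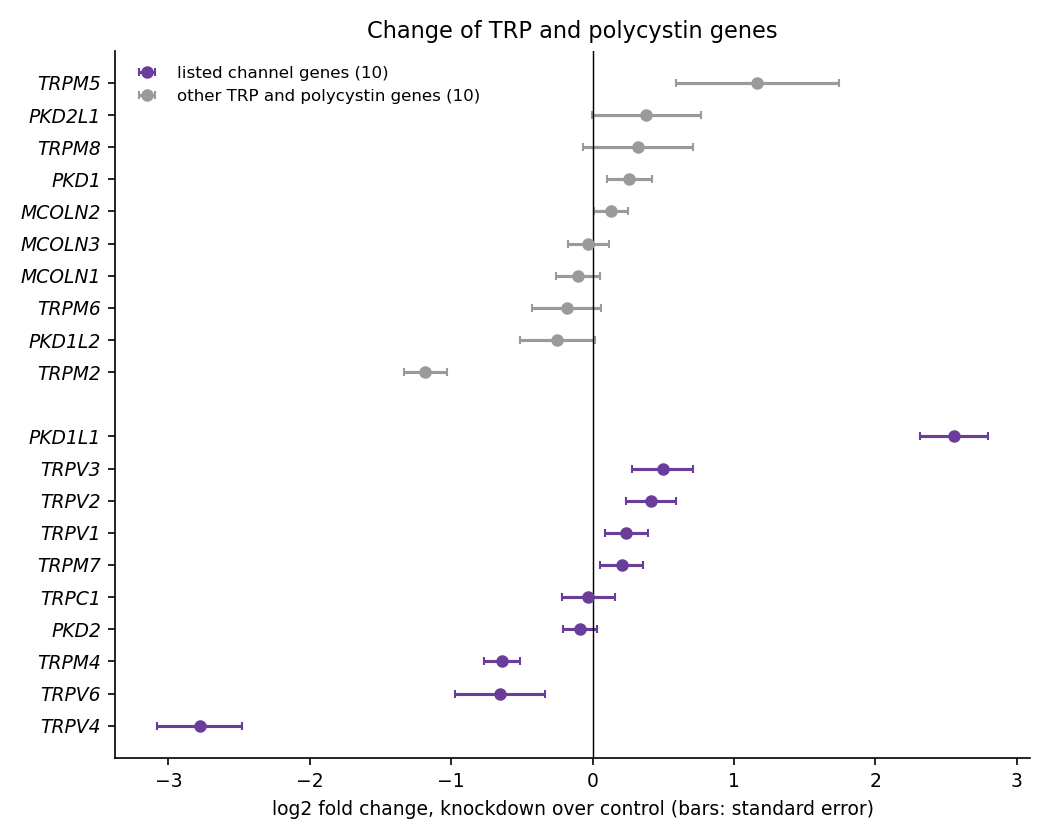
Log2 fold change of knockdown over control with its standard error, for the 10 listed channel genes (purple) and 10 of the other TRP and polycystin genes tested (grey). TRPV4 at -2.78 and PKD1L1 at 2.56 lie at the ends of the axis, and TRPM2 at -1.18 is the lowest of the grey points.

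Genes that work with these channels were counted in 7 lists of calcium and magnesium handling, which exclude the members. Of 140 tested, 17 rose and 26 fell, or 30.7% called beside 28.6% of protein-coding genes, which all of them are, and 25.6% of all genes (edgeR quasi-likelihood adjusted p under 0.05), and the median log2 fold change was 0.02 beside 0.01 over all genes. Both directions were present in 6 of the 7 lists. Without control replicate 1 or 2 the counts were 0 and 1 higher and 9 and 8 lower, and of the 40 called genes named from all lists, cell type markers and TRPM2 included, 30 lost their call in each case. The DESeq2 Wald test gave 10 higher and 25 lower.

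In store-operated and receptor-operated calcium entry, 4 of 27 genes rose and 5 fell. PLCB3, a phospholipase C downstream of G protein-coupled receptors, fell from 200 ± 14.9 to 99.7 ± 7.63 CPM (log2 fold change -1.01, edgeR adjusted p = 0.000167), while PLCB1 of the same family rose by 0.61 in log2 units (edgeR adjusted p = 0.00598). PLCG2 and the scaffold gene HOMER3 fell by 0.62 and 0.52. HOMER3 shares 21.2% of its exon bases with other genes and was not called with the GC offset (edgeR adjusted p = 0.122). RYR1 and ITPR1, calcium release channels of internal stores, rose by 0.66 and 0.48 in log2 units (edgeR adjusted p = 0.0172 and 0.0244).

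Of 20 calcium pumps and exchangers, 2 rose and 5 fell. ATP2C2, a calcium pump of the secretory pathway, fell from 9.42 ± 1.64 to 2.63 ± 0.277 CPM (log2 fold change -1.84, edgeR adjusted p = 0.000657), and shares 26.2% of its exon bases with other genes. ATP2A3, a pump of the endoplasmic reticulum, and MCU, the mitochondrial calcium uniporter, fell by 0.70 and 0.46 on the log2 scale. ATP2B4, a pump of the plasma membrane, rose by 0.43 (edgeR adjusted p = 0.0157), and was not called with the GC offset (edgeR adjusted p = 0.0541). SLC24A3, a sodium-calcium exchanger and among the 2 that rose, had 0 and 2 counts in the control pair and 16 and 16 after knockdown. It passed the filter on low counts only through its knockdown libraries. Its call, counted here and in the total of the lists, therefore carries no weight of its own.

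Of 13 voltage-gated calcium channel genes, 3 rose and 2 fell. The subunit genes CACNB1 and CACNB4 rose by 0.67 and 0.61 and the L-type CACNA1D by 0.83 on the log2 scale. CACNA1D was not called with the DESeq2 Wald test (adjusted p = 0.0693). CACNA1H, a T-type channel, fell by 0.53 (edgeR adjusted p = 0.00572), and by 0.30 with the GC offset (edgeR adjusted p = 0.0944). CACNA2D1 fell by 1.08 and lost its call with DESeq2 and without knockdown replicate 2. Of 13 other mechanosensitive and ligand-gated cation channels, none rose and 2 fell, the acid-sensing ASIC1 by 0.90 and the ATP-gated P2RX4 by 0.56. ASIC1 stood at 134 ± 11.2 CPM in control cells and 71.5 ± 1.89 CPM after knockdown (SD, n = 2 each; edgeR adjusted p = 0.000237).

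Of 19 magnesium transport genes, 1 rose and 5 fell. NIPAL3 fell from 53.2 ± 5.58 to 21.6 ± 2.56 CPM (log2 fold change -1.30, edgeR adjusted p = 0.000154), and the mitochondrial magnesium channel gene MRS2 and the transporter gene SLC41A3 fell by 0.79 and 0.75. CNNM4 rose by 0.41 (edgeR adjusted p = 0.0333), and was not called with plain library totals (edgeR adjusted p = 0.0611) or the DESeq2 Wald test (adjusted p = 0.0710). Of 25 calcium sensor and NFAT genes, 3 rose and 4 fell. The kinase gene CAMK4 rose by 0.79, the transcription factor gene NFATC3 by 0.50 and S100A10, an adaptor for TRPV5 and TRPV6, by 0.41 on the log2 scale. S100A10 was called in 6 of 12 alternatives, and was not called without knockdown replicate 2. NFATC3 shares 36.3% of its exon bases with other genes. RCAN2, a calcineurin regulator, the kinase gene CAMKK2 and NFATC4 fell by 1.59, 0.84 and 0.62.

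Of 23 partner and trafficking genes, 4 rose and 3 fell. PACSIN3, a membrane-shaping protein that binds TRPV4, fell from 70.8 ± 3.19 to 34.5 ± 3.07 CPM (log2 fold change -1.04, edgeR adjusted p = 0.000222). PACSIN1 of the same family fell by 0.54. PACS2, a sorting protein that binds PKD2, fell from 129 ± 1.63 to 56.2 ± 5.996 CPM (log2 fold change -1.20, edgeR adjusted p = 5.39e-05). The kinase gene WNK1 and the ubiquitin ligase gene NEDD4 rose by 0.54 and 0.56. BICC1, an RNA-binding protein linked to cystic kidneys, had 11 and 17 counts in the control pair and 44 and 41 after knockdown (log2 fold change 1.58, edgeR adjusted p = 0.00838), and was not called with the DESeq2 Wald test (adjusted p = 0.0679).

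**Figure D4:**
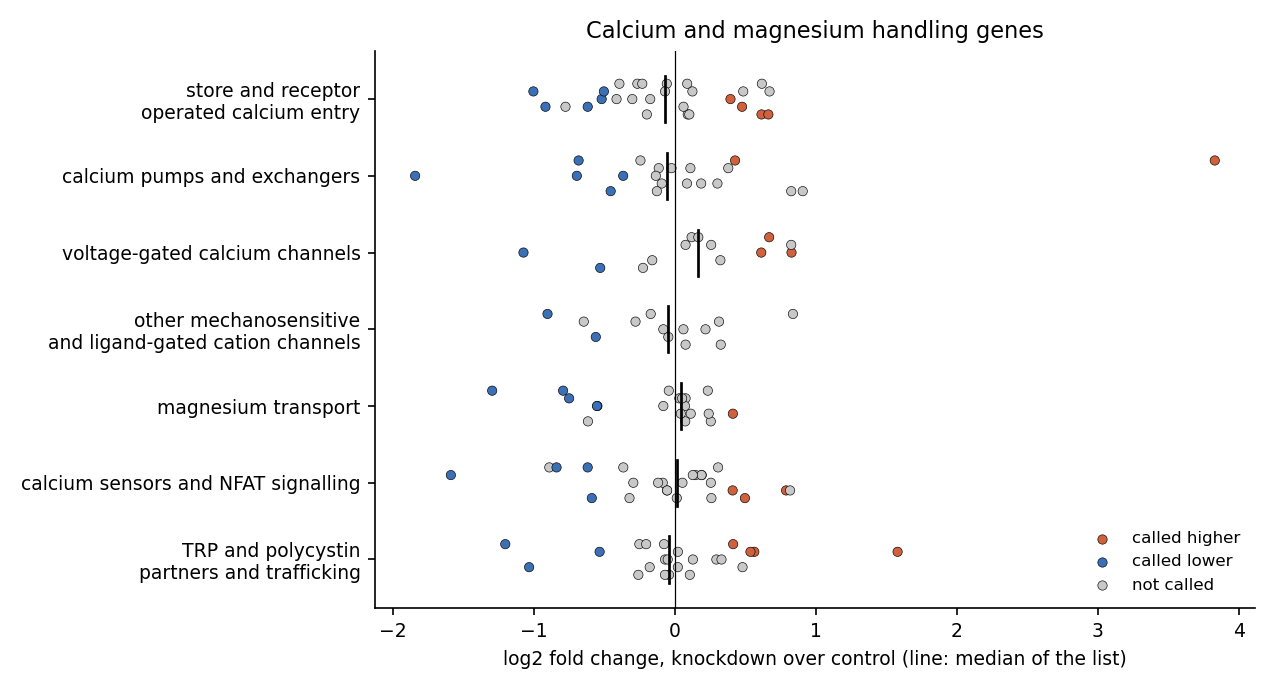
Log2 fold change of each tested gene in the 7 lists; orange and blue points were called higher and lower by edgeR, grey points were not called, and a line marks the median of the list. Points of both colours lie on either side of 0 in every list but that of other cation channels, which has only blue ones, and the point at far right is SLC24A3, with 0 and 2 control counts.

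The genes beside the members were tested as well, to describe the values along each stretch of chromosome. The members, unlike these neighbours, were chosen by fold change, so a larger change of a member carries no weight of its own. Of 23 genes that overlap a member or lie next to it, 5 rose and 2 fell (edgeR adjusted p under 0.05). That is 30.4%, beside 28.6% of protein-coding genes, which most of them are, and 25.6% of all genes. None of the 7 was called without control replicate 1 or 2. On the sides of TRPV4, FAM222A, 12.6 kb away, rose by 0.83 in log2 units (edgeR adjusted p = 0.00898), opposite to TRPV4, and GLTP, a glycolipid transfer protein gene, was at -0.04 (edgeR adjusted p = 0.86). Beside PKD1L1, the checkpoint gene HUS1, 14.8 kb away, was at -0.25 and the adhesion gene TNS3 at 0.03 in log2 units (edgeR adjusted p = 0.403 and 0.932). HUS1 was called lower without knockdown replicate 1 (edgeR adjusted p = 0.000551). HRC, 2.35 kb from TRPM4, had 10 and 18 counts in the control pair and 33 and 44 after knockdown, and rose while TRPM4 was lower (log2 fold change 1.45, edgeR adjusted p = 0.0183). HRC lost its call with DESeq2 and without knockdown replicate 2.

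Both flanks of TRPM7 rose a little: SPPL2A by 0.52 and USP8 by 0.36 in log2 units (edgeR adjusted p = 0.00479 and 0.0355). USP8 was called in 6 of 12 alternatives and not without knockdown replicate 1. Beside PKD2, the transporter gene ABCG2 rose by 0.76 and SPP1, which encodes osteopontin, fell by 0.62 (edgeR adjusted p = 0.00247 and 0.0297). LRRC75A, 4.57 kb from TRPV2, fell by 1.13 (edgeR adjusted p = 0.00511). TRPV1 and TRPV3 are neighbours themselves, 7.45 kb apart on the same strand. Within 1 Mb of PKD1L1 only 4 other protein-coding genes were tested, with log2 fold changes from -0.35 to 0.61, and within 1 Mb of TRPV4 there were 29, from -1.62 to 0.83.

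**Figure D5:**
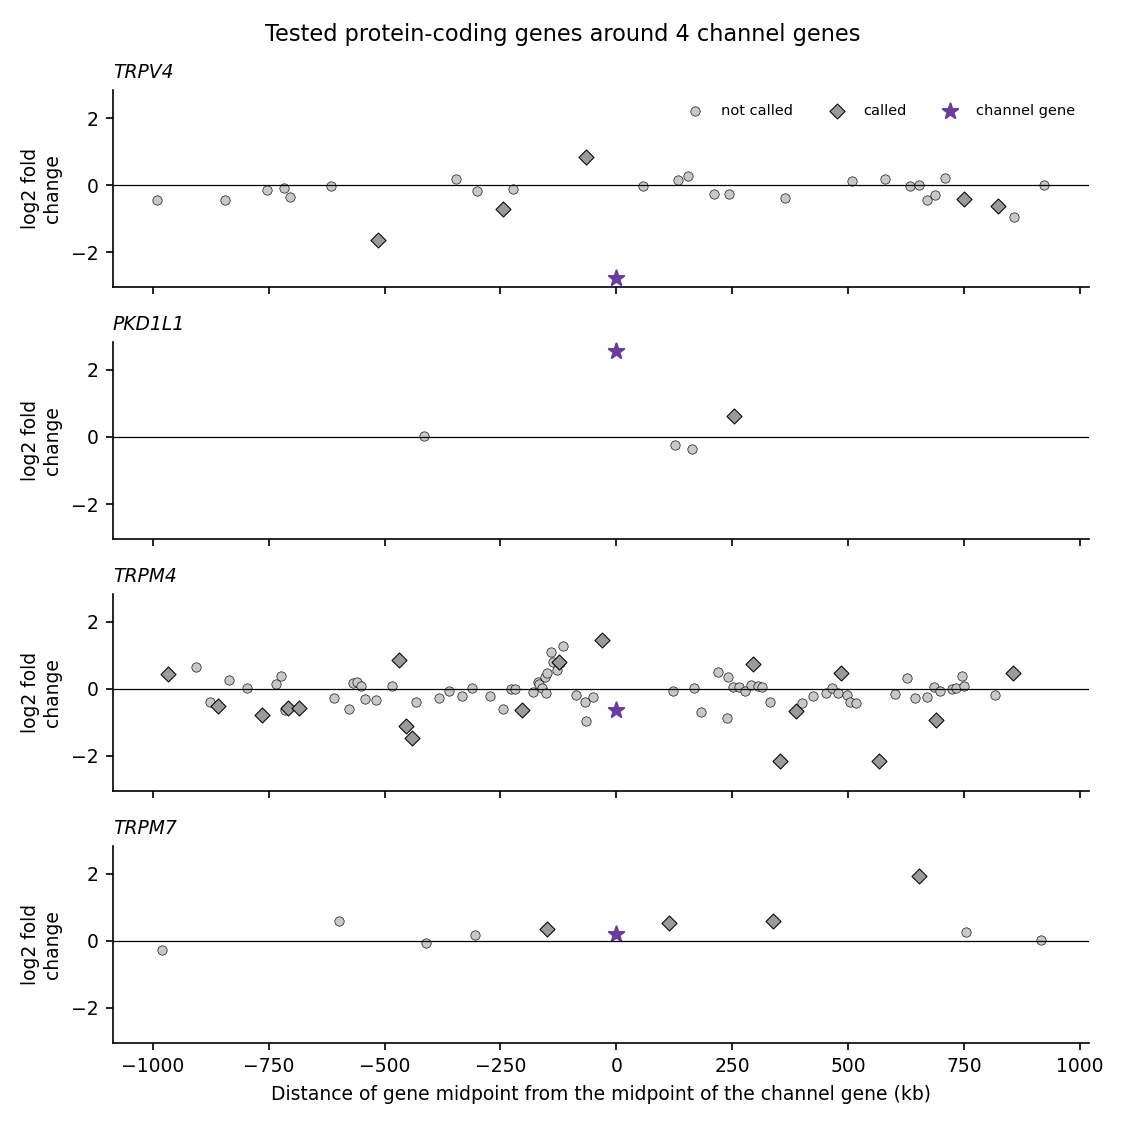
Log2 fold change of tested protein-coding genes whose midpoint lies within 1 Mb of TRPV4, PKD1L1, TRPM4 or TRPM7 (star), against the distance in kb; diamonds were called by edgeR. The stars of TRPV4 at -2.78 and PKD1L1 at 2.56 stand outside the range of their neighbours, -1.62 to 0.83 and -0.35 to 0.61, while TRPM4 and TRPM7 lie within theirs. The starred genes were chosen by fold change in this comparison and the neighbours were not, so this difference carries no weight of its own.

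Sequence features of the members were set beside 14267 tested protein-coding genes. Sense-strand T runs of at least 9 bases occurred 2.58 times per 10 kb in the span of TRPV4 and 2.83 times in PKD1L1, beside a median of 2.91. TRPV1, TRPM4, TRPV2 and TRPM7 were denser, at 7.73, 7.02, 6.999 and 6.70 per 10 kb, above 97.8%, 96.2%, 96.1% and 94.7% of genes, and TRPV6 had none. Genes called higher and called lower had medians of 2.96 and 2.60 per 10 kb, and genes not called 2.96.

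In the canonical mRNA, runs of at least 6 T, read as U, were absent from TRPV4, TRPM4, TRPV2 and TRPV6, and densest in TRPC1 at 2.41 per kb, above 97.5% of genes. TRPV4 and TRPM4 have GC-rich mRNAs, at 60.5% and 63.5% GC, and PKD1L1 is intermediate at 51.2%. TRPC1 and TRPM7 are the poorest in GC, at 39.7% and 39.5%. Over all tested coding genes the median density of such runs was 0.669 per kb for genes called higher, 0.274 for genes called lower and 0.484 for genes not called. The median GC of the mRNA was 56.2% for genes called lower, 45.7% for genes called higher and 48.8% for genes not called. TRPM2, called lower, was at 61.7%. With the GC offset TRPV4 was at -2.66, PKD1L1 at 2.53, TRPM4 at -0.46 and TRPM2 at -1.04 on the log2 scale.

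TRPV1, TRPV2 and TRPV3 are also known from sensory neurons and skin, so markers of other cell types were read beside them. For scale, 7524 of all 19686 genes tested and 5890 of 14280 protein-coding genes had an unadjusted p under 0.05 (edgeR). The share called was 28.6% of protein-coding genes. Of 10 sensory neuron markers, 6 were tested, with a median log2 fold change of 0.87 and 3 at an unadjusted p under 0.05, and 2 rose, ISL1 by 1.07 and SCN11A by 1.75 in log2 units (edgeR adjusted p = 0.00895 and 0.0125). ISL1 had 84 and 152 counts in the control pair and 210 and 282 after knockdown, and SCN11A 9 and 8 against 26 and 33. SCN11A passed the filter on low counts only through its knockdown libraries, so its call carries no weight of its own. The median covers only the markers that passed this filter, SCN11A among them. The summed level of all 10 markers was 27.7 and 35.5 CPM in the control pair and 36.3 and 48.3 CPM after knockdown, and TAC1 had no count in any library. Both calls were lost without control replicate 1 or 2, and that of SCN11A with DESeq2. The part of these markers in the TRPV values was not tested. Fibroblast markers summed to 128 and 148 CPM in the control pair and 103 and 133 CPM after knockdown. Of these, 2 were tested and neither was called (edgeR). Both had an unadjusted p under 0.05, PDGFRB higher (log2 fold change 0.46, edgeR adjusted p = 0.0797) and the other lower. The median log2 fold change of the 2 was 0.06. Leukocyte markers summed to 35.1 to 38.0 CPM in both groups, with ITGAM higher (log2 fold change 1.24, edgeR adjusted p = 0.0106, not called without control replicate 1 or 2) and MS4A1 at 0. Of the 5 leukocyte markers tested 4 had an unadjusted p under 0.05, CD68 lower and 3 higher, and the median log2 fold change of the 5 was 0.70. Of 11 tested epithelial markers 2 fell, CDX2 by 0.47 and CLDN7 by 0.35 in log2 units (edgeR adjusted p = 0.0311 and 0.0392), and both calls were lost without control replicate 1 or 2 and with the GC offset.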

How the data were processed

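RNA was sequenced from 4 HCT116 libraries, 2 controls and 2 RALY knockdowns, grouped and numbered by their titles. The authors deposited 1 table of gene counts per library, unnormalized, laid out as featureCounts writes it, per the file headers. GRCh38 and the tools Subread, featureCounts, SAMtools and HISAT2 2.0.4 are named, per the submitters' processing notes. The sources used here give neither the strand setting nor any removal of duplicates. The 58884 genes were matched by ID to GENCODE release 44, of which 58472 were found.

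Genes were filtered with filterByExpr, scaled with TMM factors and fitted with the robust quasi-likelihood model of edgeR 4.0.16 (R 4.3.3), with a term for the group. P-values were adjusted by Benjamini-Hochberg over the 19686 genes tested and called under 0.05. The procedure was tested on simulated data. Totals of 13360007 to 16847520 counts make 3 counts worth 0.178 to 0.225 CPM before TMM scaling, counting error only. Libraries of a group differed beyond counting error, with a chi-square of 5.10 (controls) and 9.32 (knockdown) per degree of freedom.

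Alternatives were DESeq2 1.42.0 size factors or Wald test, plain totals, other filters, a replicate block, each library left out, counts corrected for levelling off against gene length and, added after the data were seen, a GC offset. Members and lists were chosen with earlier results of these data known. Named were the members, RALY, tested relatives and neighbours, and up to 3 called genes by smallest p per list and direction, or the 1 with the smallest p where none was called. Not every neighbour is discussed, and 1 tested relative is counted but not reported here.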

Additional observations from a re-analysis of the deposited data

How the results depend on the processing

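Over the alternatives that kept all 4 libraries, TRPV4 ranged from -2.81 to -2.66 and PKD1L1 from 2.53 to 2.56 on the log2 scale, and TRPM4 from -0.67 to -0.46, the last with the GC offset. Leaving out 1 library changed the sign of TRPM7 and TRPC1 and of no other member. Genes called over the whole table ran from 340 to 2908 higher and from 508 to 3351 lower when 1 library was left out, the low values without a control. The lone library of a group is then assumed to vary like the pair of the other group. The other TRP and polycystin genes called higher were 0 to 1 without 1 library, 1 with the replicate block (TRPM5) and 1 with the GC offset (PKD1), beside 0. Calcium and magnesium genes called without 1 library were 0 to 24 higher and 8 to 33 lower, and the DESeq2 Wald test gave 10 higher. Neighbouring genes called were 0 to 5 higher and 0 to 3 lower without 1 library, and 3 higher with DESeq2. The median per-length level of the 10 members in the controls was 5.50 CPM per kb with canonical lengths and 4.72 with table lengths. RALY stayed between -1.96 and -1.76. The replicate numbers are only numbers in the titles. Deviations of same-numbered libraries correlated at 0.23 over genes, and with the number as a replicate block 3518 genes were called higher and 3536 lower, and 23 and 33 of the calcium and magnesium genes. All these alternatives used 2 libraries or fewer a group, which limits the precision of every value.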
